A study of Rattus norvegicus with 10 samples.

Results

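The genes described here encode those subunits of cytochrome c oxidase (complex IV) that come as a pair of a muscle or otherwise tissue-restricted isoform and a ubiquitous one. They were taken by gene symbol from a fixed list of 8, namely Cox8b and Cox8a, Cox6a2 and Cox6a1, Cox7a1 and Cox7a2, and Cox4i2 and Cox4i1. Of these 8, 7 were among the 18025 genes with values, and Cox7a1 was not analysed here. All 7 passed the filter on low values, which left 14542 genes to test. The list was selected on the FPKM of CON and HG libraries, whose difference was already known, so that this difference is described for the 7 genes and not tested.

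The values came from hearts of Sprague-Dawley rat fetuses at embryonic day 19.5, genotype wt, in 10 libraries of stranded mRNA. In the control group (CON, 5 libraries) the dams, 3 months old, had intraperitoneal injections of citric acid buffer on 3 days in a row. In the hyperglycemia group (HG, 5 libraries) dams of the same age had streptozotocin (STZ), which destroys insulin-producing beta cells, in that buffer on the same schedule, and the sires were normoglycemic. The sources differ on whether STZ was given before or after mating, and it is a model of maternal diabetes from loss of insulin. The labels do not say which libraries came from separate litters, so that p-values measure the spread between these libraries. The labels name heart tissue, whereas a figure legend of the study speaks of isolated cardiomyocytes and its methods of pooled RNA, although the 10 libraries all differ. Values are FPKM (fragments scaled to the length of the gene and to the size of the library), and each library had 16672876 to 19109844 reads on genes.

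Cytochrome c oxidase sits in the inner mitochondrial membrane, takes electrons from cytochrome c, passes them to oxygen and pumps protons. Its catalytic core is made in the mitochondrion, and the subunits around it are encoded in the nucleus and tune the activity and stability of the enzyme. In heart and skeletal muscle, the subunits VIa, VIIa and VIII have muscle forms, which take over from the ubiquitous forms as the heart matures around birth. In the annotation that accompanied the values, all 7 genes shared 3 GO terms (cytochrome-c oxidase activity, integral component of membrane and proton transmembrane transport) and the same 11 KEGG pathways. The term cellular response to hypoxia stood on Cox4i2 alone among the 7, and the terms on the respirasome, the assembly of respiratory complexes into larger units, on Cox7a2 alone.

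The stretches upstream of 3 genes are shown because these carry the contrast that follows, the muscle forms Cox8b and Cox6a2 and the ubiquitous Cox8a. Each is the 250 bases before the gene's start in RefSeq, build GRCr8, which is a later build than the mRatBN7.2 named for the values. RefSeq entries matched 5 of the 7 genes, all but Cox6a1 and Cox4i2. The Cox8b sequence is chr1:205408274-205408523, that of Cox6a2 chr1:192219717-192219966 and that of Cox8a chr1:213833624-213833873, all on the minus strand and written 5′ to 3′. Capitals mark matches, on either strand, to the TATA box (searched as TATAAA), to the core bound by the MEF2 factors of muscle (searched as CTANNNNTAG), to the core bound by ETS factors such as the GABP of mitochondrial genes (searched as CTTCCGG) and to the GC box (searched as GGGCGG).
Cox8b: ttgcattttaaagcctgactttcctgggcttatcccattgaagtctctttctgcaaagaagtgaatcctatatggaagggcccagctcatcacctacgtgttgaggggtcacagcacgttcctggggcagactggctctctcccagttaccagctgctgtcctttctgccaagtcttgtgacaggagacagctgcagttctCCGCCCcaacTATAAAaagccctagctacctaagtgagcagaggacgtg
Cox6a2: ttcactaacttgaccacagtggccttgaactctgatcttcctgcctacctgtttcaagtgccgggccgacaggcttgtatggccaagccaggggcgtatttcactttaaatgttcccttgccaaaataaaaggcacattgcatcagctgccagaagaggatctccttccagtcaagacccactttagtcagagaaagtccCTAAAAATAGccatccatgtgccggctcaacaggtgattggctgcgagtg
Cox8a: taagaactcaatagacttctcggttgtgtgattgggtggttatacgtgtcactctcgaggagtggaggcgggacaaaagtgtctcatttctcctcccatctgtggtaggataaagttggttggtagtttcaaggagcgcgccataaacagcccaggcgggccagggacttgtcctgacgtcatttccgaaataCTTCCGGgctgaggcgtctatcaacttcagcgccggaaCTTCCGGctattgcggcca

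The Cox8b stretch held a TATA box that began 39 bases before the start and a GC box, read on the other strand, that began 49 bases before it. The Cox6a2 stretch held a MEF2 core that began 50 bases before the start. Cox8a held neither of these and had 2 ETS cores, which began 57 and 19 bases before the start. In the other matched ubiquitous forms, Cox7a2 had an ETS core at 43 bases and a GC box at 209 bases before the start, and Cox4i1 had GC boxes at 152 and 45 bases. No 2 of these matches overlapped. Of 33469 RefSeq promoters of the same length, 12.9% held the TATA box, 3.41% the MEF2 core, 7.27% the ETS core and 30.5% the GC box. A match is a run of letters and was not tested as a binding site.

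Cox8b, the muscle form of subunit VIII, had 24.5% of its CON level in HG hearts, whereas its ubiquitous partner Cox8a kept 84.7%. Cox8b stood at 300.0, 338.8, 276.6, 254.5 and 254.7 FPKM in CON 1 to CON 5. In HG 1 to HG 5 it stood at 57.4, 71.1, 62.3, 57.9 and 100.4 FPKM. Even the highest HG library, HG 5, was below the lowest CON library by a wide margin. The means were 284.9 ± 35.5 FPKM for CON and 69.8 ± 17.9 FPKM for HG (SD, n = 5 each), a log2 fold change of -2.05 with a standard error of 0.138. Among all genes ordered by level, Cox8b went from rank 260 in CON to rank 1033 in HG. Between 326 and 1972 reads lay on it in a library, so that counting error was small beside these differences.

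Cox8a stood at 837, 828, 854, 797 and 805 FPKM in CON 1 to CON 5 and at 699, 741, 697, 702 and 650.1 FPKM in HG 1 to HG 5. Its groups did not overlap either, but the step was small, from 824 ± 23.4 to 698 ± 32.2 FPKM (SD, n = 5 each, log2 fold change -0.24, standard error 0.0400). Scaled to cardiomyocyte markers other than Nppa, the log2 fold change of Cox8a was 0.075 and that of Cox8b -1.74. That scale moved the median of all genes tested from 0.09 to 0.40. The 2 forms together went from 1109 ± 50.8 to 768 ± 25.0 FPKM (SD, n = 5 each). Cox8b gave 215.1 FPKM of that difference and Cox8a 126.5, although Cox8a was the more abundant form in every library. Cox8b made up 25.6 ± 2.13% of the pair in CON, from 24.0% to 29.0%, and 9.11 ± 2.43% of it in HG, from 7.58% to 13.4% (SD, n = 5 each). No HG library reached the share of any CON library.

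**Figure D1:**
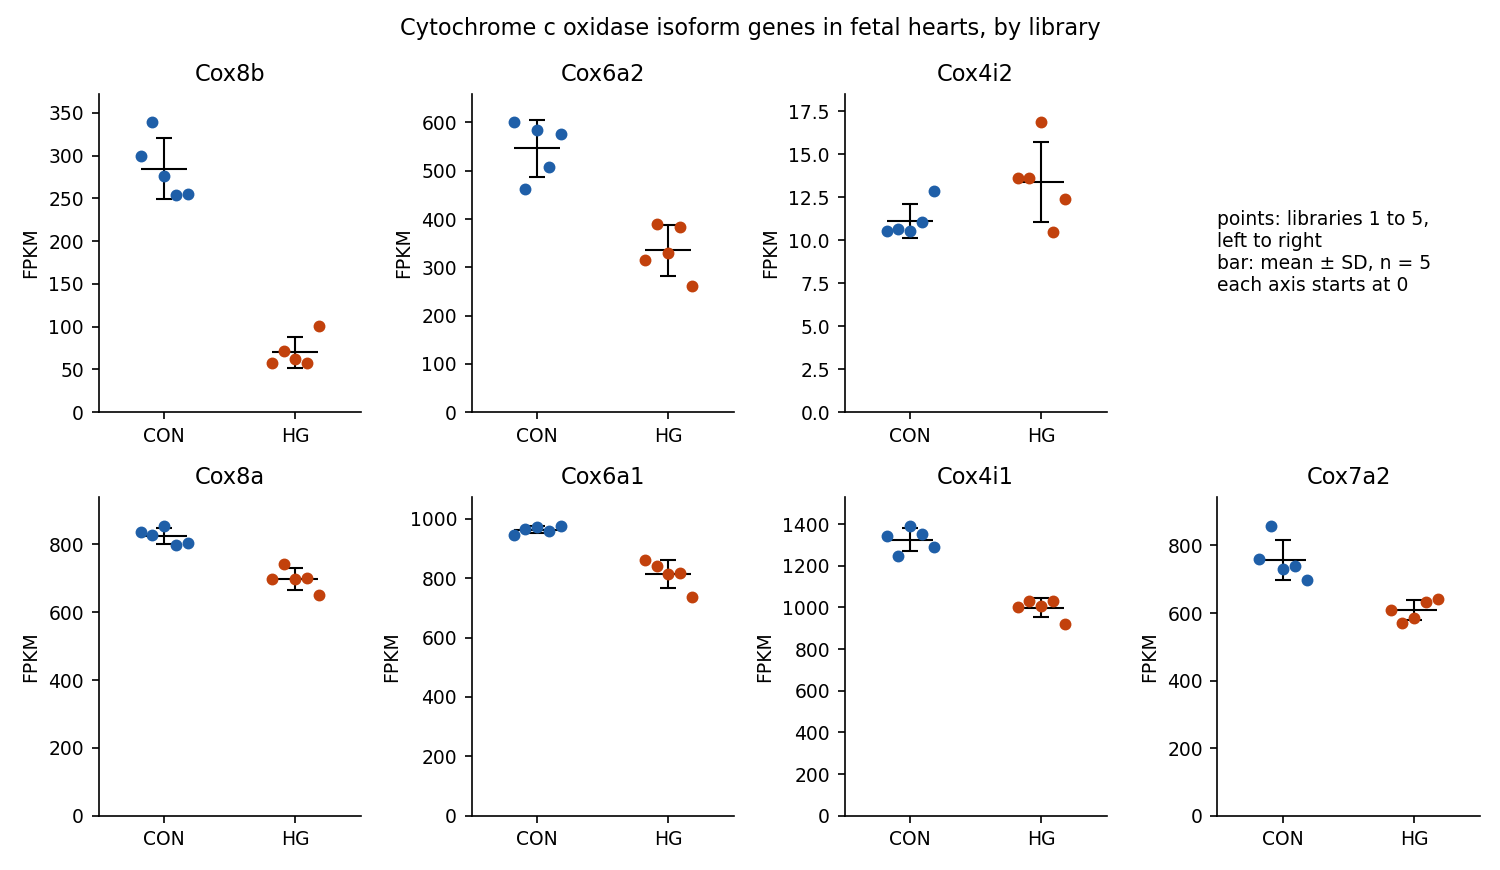
FPKM of the 7 isoform genes in each library, with tissue-restricted forms in the upper row and ubiquitous forms in the lower; points are libraries and bars the mean ± SD of 5. Cox8b has the widest gap between the groups as a ratio, at 254.5 to 338.8 FPKM in CON against 57.4 to 100.4 in HG, while Cox4i2 is the one gene whose groups overlap.

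Cox6a2, the muscle form of subunit VIa, was also lower in HG, at 61.5% of its CON level, against 84.5% for the ubiquitous Cox6a1. Cox6a2 stood at 600.0, 463, 584, 507 and 577 FPKM in CON 1 to CON 5. In HG 1 to HG 5 it stood at 314, 389.7, 330.2, 383 and 262 FPKM. CON 2 was the lowest of the CON libraries and HG 5 the lowest of all, and the groups did not overlap. The means were 546 ± 58.5 and 336 ± 52.7 FPKM (SD, n = 5 each, log2 fold change -0.71, standard error 0.106).

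Cox6a1 stood at 946, 966, 973, 959.9 and 976 FPKM in CON 1 to CON 5 and at 863, 842, 815, 816 and 738 FPKM in HG 1 to HG 5. It was the steadiest of the 7 genes within CON, with an SD of 1.22% of the mean, and its HG libraries all lay lower (964 ± 11.8 against 815 ± 47.2 FPKM, SD, n = 5 each, log2 fold change -0.24, standard error 0.0427). On the scale of cardiomyocyte markers other than Nppa, the log2 fold change of Cox6a1 turned to 0.071 and that of Cox6a2 to -0.39. The pair summed to 1510 ± 58.7 FPKM for CON and 1151 ± 90.1 FPKM for HG (SD, n = 5 each). Of the difference, 210.4 FPKM lay with Cox6a2 and 149.4 with Cox6a1. The share of Cox6a2 was 36.1 ± 2.56% in CON and 29.1 ± 2.69% in HG, from 32.4% to 38.8% and from 26.2% to 31.9% (SD, n = 5 each). The groups were thus apart in this share, with a difference of -7.03 percentage points, where that of Cox8b was -16.5 points.

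Subunit IV binds adenine nucleotides, and its second form Cox4i2 is not a muscle form but one of lung and of oxygen-sensing and vascular cells. Cox4i1, the ubiquitous form, was the most abundant of the 7 genes in every library. It stood at 1344, 1247, 1391, 1353 and 1291 FPKM in CON 1 to CON 5 and at 1001, 1032, 1008, 1028 and 921 FPKM in HG 1 to HG 5. The groups lay apart, at 1325 ± 56.4 and 998 ± 44.8 FPKM (SD, n = 5 each, log2 fold change -0.41, standard error 0.0443). Scaled to cardiomyocyte markers other than Nppa, the log2 fold change of Cox4i1 was -0.09. By FPKM, HG kept 75.3% of the CON level of Cox4i1, less than for Cox8a or Cox6a1.

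Cox4i2 was present at about a hundredth of that level, at 10.5, 10.7, 10.5, 11.0 and 12.9 FPKM in CON 1 to CON 5. In HG 1 to HG 5 it stood at 13.6, 13.6, 16.9, 10.5 and 12.4 FPKM. HG 4 lay below every CON library and CON 5 above 2 HG libraries, so that the groups overlapped (11.1 ± 1.00 against 13.4 ± 2.33 FPKM, SD, n = 5 each, log2 fold change 0.25, standard error 0.106). With 198 to 313 reads in a library, it was the most thinly covered of the 7. Its share of the pair was 0.835 ± 0.0930% for CON and 1.33 ± 0.226% for HG (SD, n = 5 each). These shares did not overlap, at 0.752% to 0.989% and 1.01% to 1.65%, and the difference of 0.491 points came with the lower Cox4i1 as well as the level of Cox4i2.

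Cox7a2, the ubiquitous form of subunit VIIa, stood at 759, 858, 730.2, 740.4 and 698 FPKM in CON 1 to CON 5. In HG 1 to HG 5 it stood at 609, 572, 586, 632 and 642 FPKM. Every HG library was below every CON library, at 80.4% of the CON level on average (757 ± 60.5 against 608 ± 30.0 FPKM, SD, n = 5 each, log2 fold change -0.31, standard error 0.0553). Scaled to cardiomyocyte markers other than Nppa, its log2 fold change was 0.0027. Without values for Cox7a1, no share of the pair was computed.

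**Figure D2:**
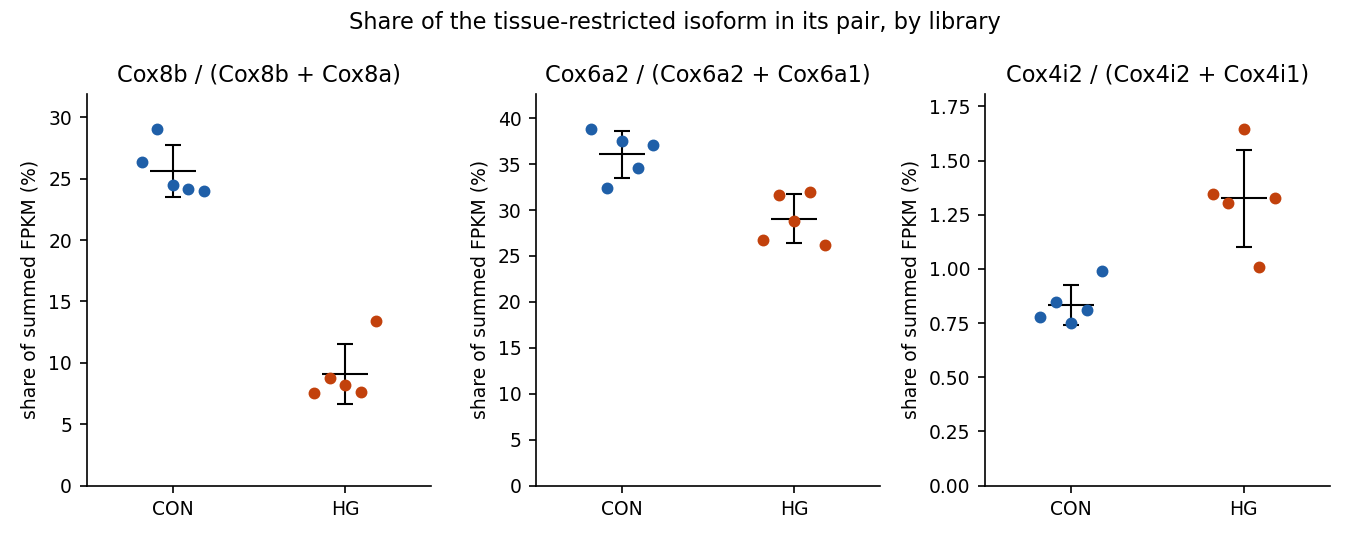
Share of the tissue-restricted isoform in the summed FPKM of its pair, in percent, for each library; points are libraries and bars the mean ± SD of 5. The share of Cox8b went from 25.6% to 9.11%, that of Cox6a2 from 36.1% to 29.1% and that of Cox4i2 from 0.835% to 1.33%, with no overlap of the groups in any pair.

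Ordered by FPKM, which is per length of gene, the levels ran Cox4i1, Cox6a1, Cox8a, Cox7a2, Cox6a2, Cox8b and Cox4i2 in both groups. In CON, the neighbours Cox8a and Cox7a2 overlapped and stood in this order in 4 of 5 libraries. In HG, the ranges of Cox6a1 and Cox8a overlapped, although Cox6a1 was higher in all 5 libraries. The other neighbours did not overlap. The muscle forms also spread most between libraries among the 6 abundant genes, with an SD of 12.5% of the mean in CON and 25.7% in HG for Cox8b and of 10.7% and 15.7% for Cox6a2.

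The log2 fold change of the muscle form minus that of its partner was -1.81 for Cox8b and Cox8a and -0.47 for Cox6a2 and Cox6a1, and for Cox4i2 and Cox4i1 it was 0.66. In 6 of the 7 genes, every HG library lay below every CON library, as in 8.12% of all genes tested, while 19.3% had every HG library above. Since the genes were listed with this contrast known, nothing is read from this count. The median log2 fold change of the 7 genes was -0.31, beside 0.09 for all genes tested. Only 20 genes tested had a log2 fold change below that of Cox8b. Of these, 1 had a mean over all 10 libraries at least as high as the mean of Cox8b over the HG libraries.

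Short messenger RNAs, to which Cox8b (319 bases, a length worked out from the FPKM values) belongs, ran high in 2 libraries. Over 114 genes of up to 500 bases whose mean was 5 FPKM or more, the median deviation from the own group's mean was 0.11 on the log2 scale in CON 2 and 0.09 in HG 5, and lay between -0.07 and 0.01 in the other 8 libraries. Cox8b lay 0.26 above its group in CON 2 and 0.56 above in HG 5. Cox6a2 (507 bases) lay 0.23 and 0.35 below its group there (deviations of -0.23 and -0.35), so that the muscle forms lay on opposite sides of their group means in these libraries, as they also did in CON 3, CON 5 and HG 4. The part of length in these values was not tested. The short genes had a median log2 fold change between the groups of 0.01 and the 8343 longer ones of 0.08, and of the short genes Cox8b alone lay as low as -2.05. Without CON 2 and HG 5, left out together after the values were seen, the fold changes of the 7 genes kept their sign, and Cox8b had -2.13 and Cox6a2 -0.68 on the log2 scale.

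The nuclear subunits that come in one main form gave a scale for the isoforms. Of 10 other complex IV genes with values, 8 were lower in HG and 0 higher (limma, adjusted p under 0.05, Benjamini-Hochberg over all genes tested). Of all genes tested, 11.8% were lower and 28.4% higher. The 10 complex IV genes had a median log2 fold change of -0.34. Cox5b, which carries a zinc ion, had the smallest adjusted p (945 ± 32.0 against 728 ± 22.3 FPKM, SD, n = 5 each, log2 fold change -0.38, limma adjusted p = 1.63e-05). Log2 fold changes of the genes that follow stand in parentheses. Cox5a, a matrix-side subunit, was next (-0.40, limma adjusted p = 4.56e-05), then Cox6b1, which faces the intermembrane space and helps to hold the dimer (-0.31, limma adjusted p = 0.000160), and Cox7b (-0.38).

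Cox6c (-0.37), Ndufa4 (-0.29), the supercomplex factor Cox7a2l (-0.18) and Ndufa4l2 (-0.66), a hypoxia-linked relative of Ndufa4, were the other 4 that fell. Cox7c had a log2 fold change of -0.27 and did not pass (limma adjusted p = 0.0563), and it stood at 831 FPKM in CON 2 and 639 in HG 5, the highest of each group. Cox6b2, known from testis, had 0.16 (limma adjusted p = 0.334). The 7 genes Cox5a, Cox5b, Cox6b1, Cox6c, Cox7b, Cox7c and Ndufa4 had a median log2 fold change of -0.37. Against this median, Cox8b lay lower by 1.68 and Cox6a2 lower by 0.34 (differences of -1.68 and -0.34). Cox4i1 lay at -0.04, Cox7a2 at 0.06, Cox6a1 at 0.12 and Cox8a at 0.13 from it, so that the ubiquitous forms sat near the single-form subunits. Cox4i2 lay 0.62 above.

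**Figure D3:**
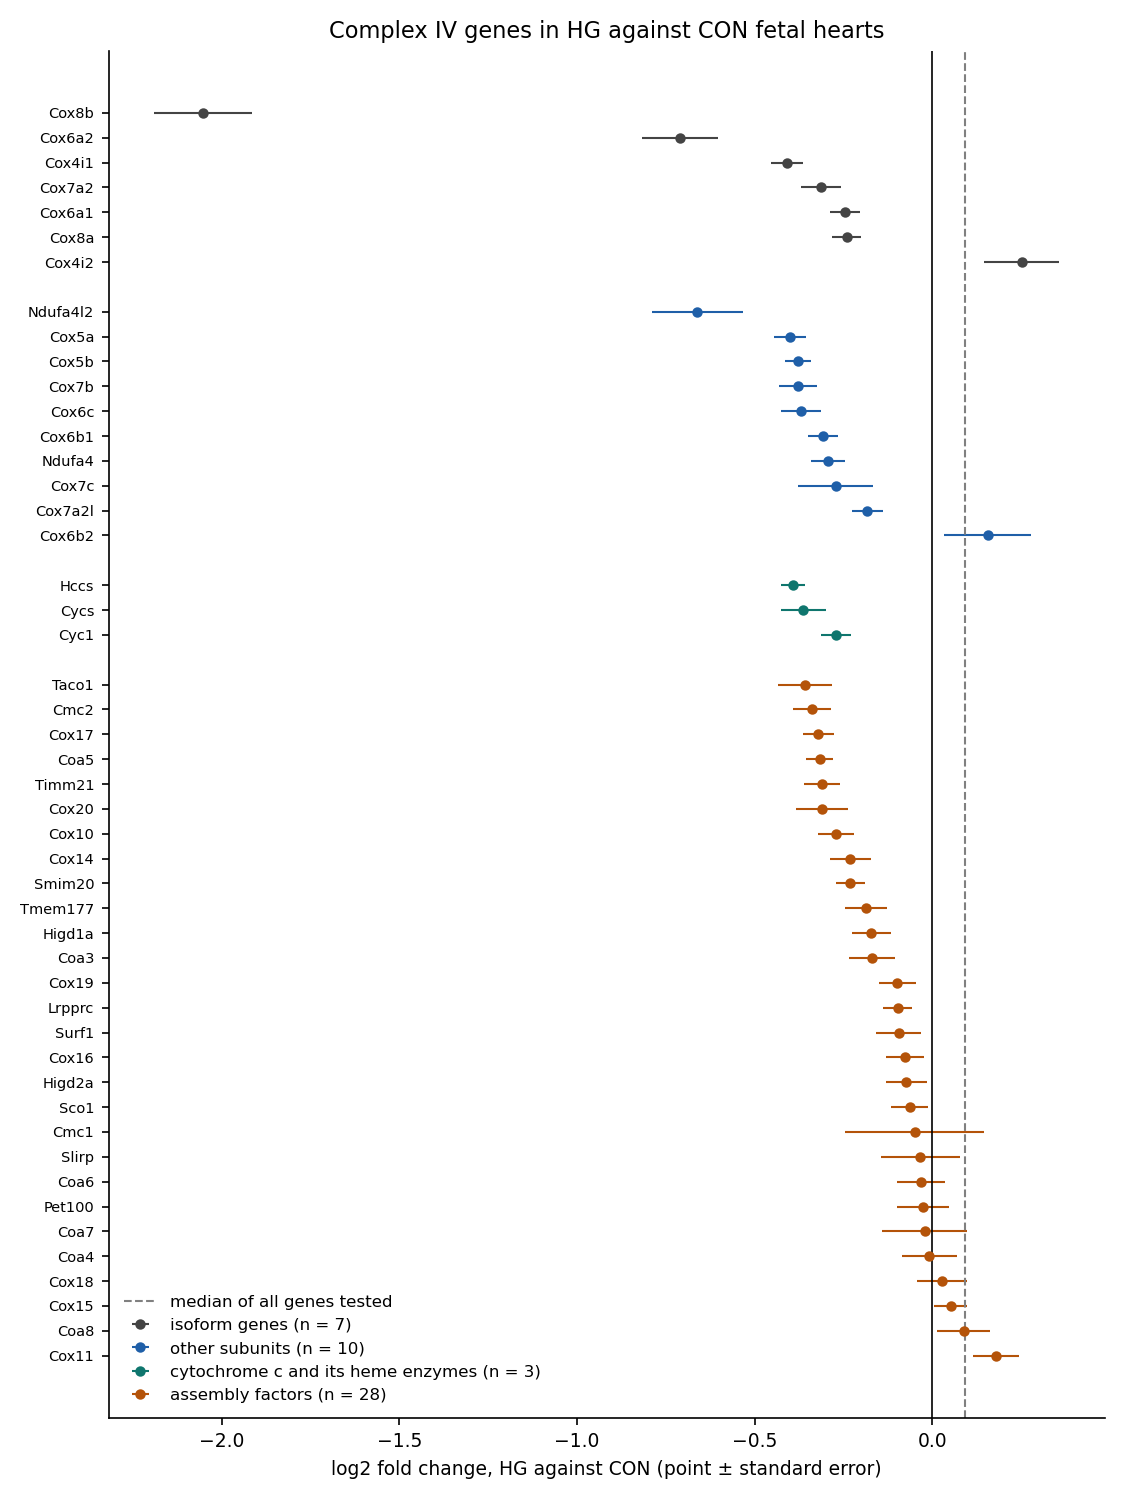
Log2 fold change of HG against CON with its standard error, on log2(FPKM + 0.1), for the isoform genes, the other subunits, cytochrome c with its related genes and the assembly factors; the dashed line is the median of all genes tested. Cox8b at -2.05 lies left of the other subunits, and Cox6a2 at -0.71 lies beside Ndufa4l2 at -0.66, within its standard error. The ubiquitous isoforms at -0.24 to -0.41 lie among the other subunits.

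Cytochrome c (Cycs), the electron donor of the enzyme, fell with a log2 fold change of -0.36 (limma adjusted p = 0.000792). Cyc1, which hands electrons to it in complex III, and Hccs, which attaches its heme, fell as well (-0.27 and -0.39, limma adjusted p = 0.000322 and 5.95e-06). Thus 3 of 3 genes of this list were lower, beside 11.8% of all genes tested. Of 28 assembly factors of complex IV, 11 were lower, 1 was higher and 16 did not pass, with a median log2 fold change of -0.10. These 12 calls are near the background in number, since 40.1% of all genes tested were called, 11.8% as lower and 28.4% as higher. The 4 with the smallest adjusted p were Coa5 (-0.32, limma adjusted p = 6.45e-05), the copper chaperone Cox17 (-0.32, limma adjusted p = 0.000157), Cmc2 (-0.34, limma adjusted p = 0.000403) and Timm21 (-0.31, limma adjusted p = 0.000483). Smim20, Cox10, Taco1, Cox20, Cox14, Higd1a and Tmem177 were the other 7 that fell, from -0.36 for Taco1 to -0.17 for Higd1a, and 7 alternatives lost the call of Tmem177 and 2 that of Higd1a. Cox11, a copper-delivery protein, was higher (0.18, limma adjusted p = 0.0431), a call that was lost in 14 alternatives, median-of-ratios and quantile scaling among them. Sco1 and Surf1, loss of which impairs assembly of the enzyme, had -0.06 and -0.09 and did not pass. None of these genes had a log2 fold change as low as that of Cox6a2.

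Of 18 factors known to control COX genes, 5 were lower, 3 higher and 10 did not pass, and these 8 calls are near the 40.1% called among all genes tested. Esrra, a nuclear receptor that drives oxidative genes, fell (-0.30, limma adjusted p = 0.000269), as did the hypoxia factor Epas1 (-0.23, limma adjusted p = 0.00834), Mef2d (-0.14, limma adjusted p = 0.0272) and Tfb2m (-0.16, limma adjusted p = 0.0401), the last of these a factor of mitochondrial transcription. Thra, a thyroid hormone receptor, had -0.13 (limma adjusted p = 0.0486). Gabpa and Gabpb1, the subunits of GABP, were higher (0.26 and 0.23, limma adjusted p = 0.00301 and 0.00962), and so was Nrf1 (0.19, limma adjusted p = 0.0326). Under median-of-ratios and quantile scaling the calls of Gabpb1 and Nrf1 were lost, with the sign kept. Of the alternatives tried, 11 lost the call of Nrf1, 11 that of Thra, 10 that of Tfb2m and 8 that of Mef2d. Among those that did not pass were the coactivator Ppargc1a (-0.10, limma adjusted p = 0.272), Mef2a (-0.01), Mef2c (0.07) and Hif1a (-0.05). The 8 calls became 5 with hemoglobin genes left out and each library rescaled to the sum of its remaining FPKM. They became 4 without CON 3, CON 4, HG 1 or HG 3.

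Other enzymes and carriers of energy metabolism with a muscle form gave a comparison outside complex IV. Of 12 muscle forms, 11 were tested, 10 were lower in HG and 0 higher, beside 11.8% lower and 28.4% higher of all genes tested. The median log2 fold change of the muscle forms was -0.56. Mb (myoglobin) was the clearest (1194 ± 128 against 379 ± 43.5 FPKM, SD, n = 5 each, log2 fold change -1.66, limma adjusted p = 2.41e-07). The creatine kinase Ckm had -0.97 (limma adjusted p = 6.36e-07), the enolase Eno3 -1.01 (limma adjusted p = 1.20e-06) and the ADP/ATP carrier Slc25a4 -0.56 (limma adjusted p = 1.81e-06). The mitochondrial creatine kinase Ckmt2 had -1.82 (limma adjusted p = 3.58e-06), the nearest of the list to Cox8b. Pgam2, Pygm, Slc2a4, Atp2a2 and Pfkm were the other 5 that fell, from -0.99 to -0.34, Phka1 did not pass, and Ampd1 was under the filter.

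Their 12 ubiquitous or fetal counterparts had a median log2 fold change of 0.00. Of these 12, 5 were lower, 3 higher and 4 did not pass, beside 11.8% lower and 28.4% higher of all genes tested. Ckb, Slc25a5, Cygb, Pygb and Pgam1 fell, from -0.50 to -0.14, and Slc2a1 (0.28), Ampd2 (0.28) and Pfkl (0.16) rose, although 11 alternatives lost the call of Slc2a1, 8 that of Pgam1, 6 that of Cygb and 1 that of Pfkl. In 11 of 11 pairs with both genes tested, the muscle form had the lower log2 fold change, with a median difference of -0.50 beside -0.47 for the Cox6a pair and -1.81 for the Cox8 pair. The difference within a pair was not tested. In the pairs Mb with Cygb and Atp2a2 with Atp2b1 the partner is a related protein and not an isoform. This list was drawn up with results of these data known, and its direction is no independent evidence.

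**Figure D4:**
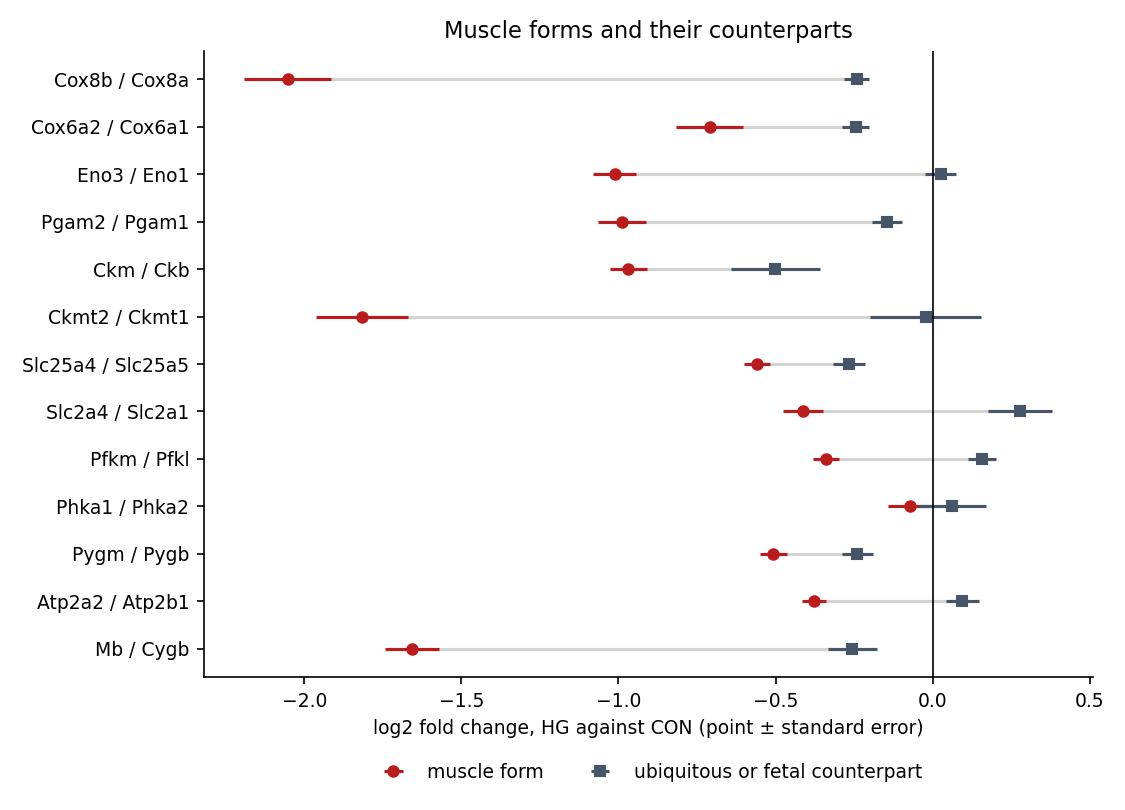
Log2 fold change of HG against CON, with its standard error, for the muscle form (circle) and its ubiquitous or fetal counterpart (square) of the Cox8 and Cox6a pairs and of 11 other pairs. The muscle form lies to the left in each pair, from -2.05 for Cox8b to -0.07 for Phka1.

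The genes whose pattern over the 10 libraries was most like that of Cox8b, out of 11702 genes whose mean was 1 FPKM or more, were found by the root mean square difference of log2(FPKM + 0.1) after each gene was centred on its CON mean. Those given here were Pcare (0.344), the sulfotransferase Sult1a1 (0.368), Zbtb16 (0.381) and Mb (0.391). Mb alone of these was more abundant than Cox8b, and Sult1a1, at 15.4% of its CON level in HG, fell further than Cox8b. Pcare, Sult1a1 and Zbtb16 were low, with means of 2.29, 2.86 and 2.98 FPKM in CON and 0.567, 0.440 and 0.844 in HG. With genes centred on CON, the measure gives much weight to the difference between the groups, which was already known for Cox8b. The genes most like Cox6a2 lay nearer to it, namely the mitochondrial malic enzyme Me3 (0.114), the pyruvate dehydrogenase kinase Pdk2 (0.121) and Cited4 (0.124). These 3 had 60.5%, 58.6% and 56.4% of their CON level in HG.

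**Figure D5:**
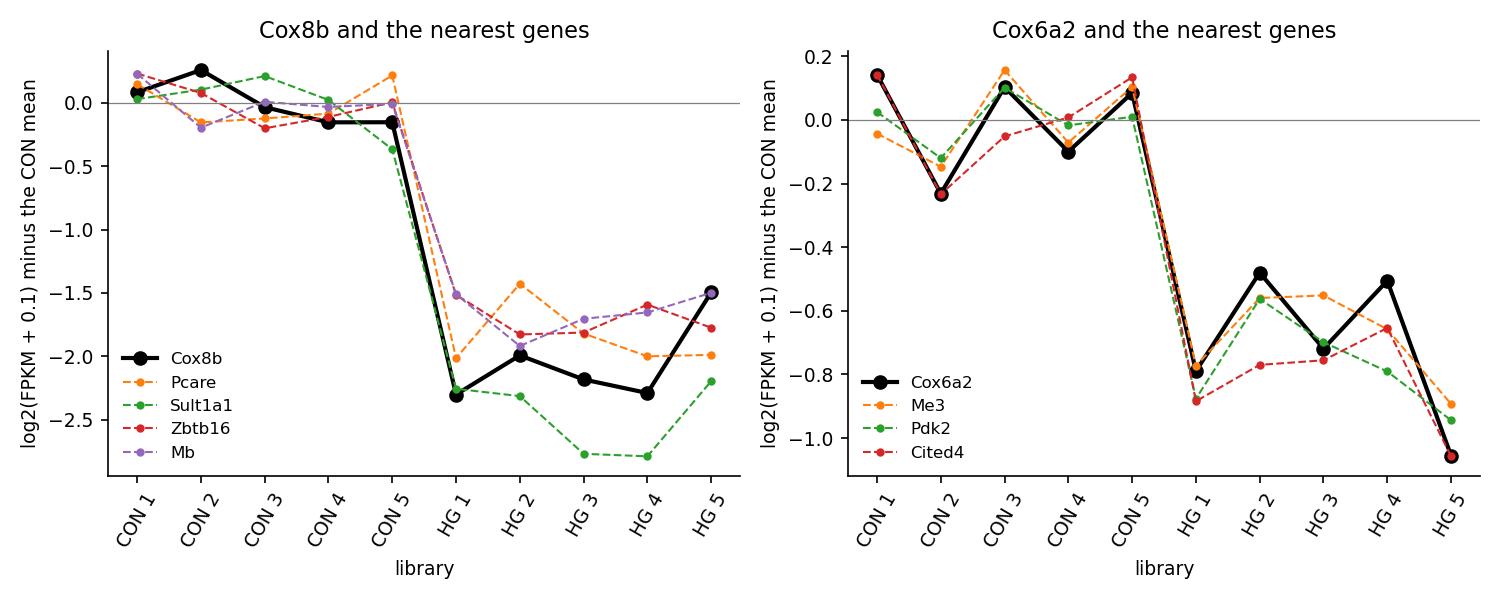
log2(FPKM + 0.1) minus the CON mean in each of the 10 libraries, for Cox8b and 4 of its nearest genes and for Cox6a2 and its 3 nearest genes. Cox8b is highest of the HG libraries in HG 5, and Cox6a2 lowest there.

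In bulk hearts, fewer cells of a type and less RNA per cell cannot be told apart. The 9 cardiomyocyte markers summed to 11869 ± 432 FPKM for CON and 11000 ± 689 for HG (SD, n = 5 each), a difference of -7.32% with overlap of the groups (two-sided exact permutation test, p = 0.0476, adjusted over 9 comparisons 0.0612). Of the 9, 7 were lower and Nppa was higher (limma), beside 11.8% lower and 28.4% higher of all genes tested. The 8 others summed to 10136 ± 231 FPKM for CON and 8145 ± 312 for HG (SD, n = 5 each), a difference of -19.6% with no overlap of the groups. Set against the sum of all 9, the log2 fold change of Cox8b was -1.94, that of Cox6a2 -0.60, that of Cox8a -0.13 and that of Cox4i2 0.36. Set against the 8 without Nppa, a scale added after the values were seen, Cox8b had -1.74, Cox6a2 -0.39 and Cox4i1 -0.09, while Cox8a (0.075), Cox6a1 (0.071) and Cox7a2 (0.0027) were no longer below 0 and Cox4i2 had 0.57. Red cell markers (7 of 8 lower) differed by -34.7% (exact permutation test, p = 0.0238, adjusted 0.0429), from 10056 to 18936 FPKM in CON and from 7771 to 10985 in HG. Smooth muscle and pericyte markers, of cells known for Cox4i2, differed by 24.9% (835 to 952 FPKM in CON, 1035 to 1296 in HG, exact permutation test, p = 0.00794, the smallest that 5 against 5 can give, adjusted 0.0357). Within that list 3 of 11 genes were higher, the contractile Acta2, Tagln and Cnn1, and 4 lower, the pericyte genes Rgs5, Abcc9, Cspg4 and Higd1b.

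Fibroblast markers summed lower by 9.32% (difference -9.32%, exact permutation test, p = 0.0238, adjusted 0.0429), although 2 of the 6 were lower (Col3a1 and Dcn) and 2 higher (Pdgfra and Tcf21). Macrophage markers summed higher by 21.1% (exact permutation test, p = 0.0238, adjusted 0.0429), a sum mostly of C1qa and C1qb. Of these 6 genes, 2 were higher (Cd68 and C1qa) and 0 lower. Endothelial markers differed by 4.74% (exact permutation test, p = 0.0635, adjusted 0.0714), with 2 of 7 higher and 0 lower. Of all genes tested, 11.8% were lower and 28.4% higher (limma), and the macrophage and endothelial counts are near the latter share. Skeletal muscle and brown fat are also known for Cox8b. Of 10 skeletal muscle markers, 6 (Myh1, Myh2, Myh4, Myh8, Actn3 and Myod1) had means under 0.1 FPKM, with Myh4 at 0 in all CON and Myh2 at 0 in all HG libraries, and the sum was 5.37 to 7.78 FPKM in CON and 6.96 to 11.0 in HG (exact permutation test, p = 0.0476, adjusted 0.0612). Of the 4 that could be tested, Mylpf (log2 fold change 0.99, limma adjusted p = 0.0108) and Myog (0.76, limma adjusted p = 0.0237) were higher, beside 28.4% higher of all genes tested. Of the brown fat markers, Ucp1 and Adipoq had means under 0.1 FPKM, with Adipoq at 0 in all HG libraries, and the sum, mostly Cidea, was 16.7 to 22.9 FPKM in CON and 13.6 to 16.4 in HG (exact permutation test, p = 0.00794, adjusted 0.0357). The part of these cells in the isoform values was not tested.

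FPKM is relative to the whole library, and other scalings moved the level of all genes. Of the genes with an adjusted p under 0.05 (limma), 29.3% were lower in HG as deposited, 52.9% under median-of-ratios scaling and 47.0% under quantile normalization, with median log2 fold changes of all genes of 0.09, 0.01 and 0.02. Set against the cardiomyocyte markers, that median was 0.20, and 0.40 without Nppa, shifts of over 0.1. Over 25 alternatives, Cox8b ranged from -2.19 to -1.74, Cox6a2 from -0.80 to -0.39, Cox4i1 from -0.50 to -0.09 and Cox4i2 from 0.16 to 0.57. Cox7a2 ranged from -0.40 to 0.0027, Cox6a1 from -0.34 to 0.071 and Cox8a from -0.33 to 0.075, above 0 in each case only on the scale of the 8 cardiomyocyte markers without Nppa.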

How the data were processed

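Stranded mRNA libraries of 5 CON and 5 HG fetal hearts were used. The authors deposited FPKM per gene. The labels list fastp, HISAT2, HTSeq, R 3.2.0 and build mRatBN7.2, with no roles or settings. How reads shared with pseudogenes or paralogs were counted, which could affect short COX genes, is not given in the sources used here.

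A mean of 0.1 FPKM or more was required (14542 genes passed and 3483 did not), and log2(FPKM + 0.1) was fitted in limma 3.58.1 (trend, no covariate) in R 4.3.3, with Benjamini-Hochberg adjustment over all of them. A pseudocount understates the change of low genes. Sums of markers were compared by two-sided exact permutation tests. Tables were made with Python 3.11.15, numpy 2.4.6, pandas 2.3.3 and scipy 1.17.1, and plots with matplotlib 3.10.9. Reads were recovered from the FPKM steps in 100% of genes (within 0.02 of a whole read) and used for depth, gene lengths and voom, and 0 columns were left unused. The study's DESeq needs counts and was not run. In a simulation, 200 genes were changed by -2, -1, 1 or 2 on the log2 scale, with the same fixed dispersion for all genes. Of these, 198 could be tested and 190 were found, and 5 genes without a change were found as well. Smaller changes and a lean of the calls to 1 direction were not simulated. The simulation therefore gives no rate of missed or false calls for these data.

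The isoform genes, lists and tests were chosen with earlier results of these data known. Named are the isoform genes, the 5 genes most like Cox8b (1 is not reported here) and 3 most like Cox6a2 (with no values for Cox7a1, its part of the rule was void), up to 4 genes of each list with the smallest adjusted p in each direction and those with groups that do not overlap, the marker sums, and markers listed at 0. Others were named to account for a list's count, after their values were seen. The alternatives tried were no filter, a minimum mean of 1 FPKM, a pseudocount of 1 or 0.01, median-of-ratios, quantile normalization, hemoglobin genes left out, cardiomyocyte markers as the scale, a fit without trend, voom, weights per array, a block on the replicate number, ratios of mean FPKM, shares of recovered reads, and each library left out in turn. With hemoglobin genes left out, each library was also rescaled to the sum of its remaining FPKM, and the parts of these steps were not separated. Leaving out CON 2 and HG 5 together, and cardiomyocyte markers without Nppa as the scale, were added after seeing the data.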

Additional observations from a re-analysis of the deposited data

Results flagged for a closer look

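In groups of 5 libraries, the highest or lowest value was set against the rest by Dixon's ratio (the gap to the nearest value over the range, critical value 0.71). Of 202 groups, 13 passed, where chance passes about 1 in 20, and 4 of the 13 lay in CON 2 and 6 in HG 5. Among the isoforms, Cox4i2 stood at 12.9 FPKM in CON 5, the highest of CON, and Cox4i1 at 921 FPKM in HG 5, the lowest of HG. The share of Cox8b in its pair was 13.4% in HG 5, the highest of HG, and the next was 8.76%.

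Among the other subunits, Cox7c stood highest in CON 2, at 831 FPKM, and in HG 5, at 639 FPKM, and Cox5a highest of HG in HG 4, at 647 FPKM. Of the assembly factors, Cox17 (182 FPKM), Cmc2 (31.5 FPKM) and Pet100 (20.8 FPKM) stood highest of CON in CON 2. Cox15 stood highest of HG in HG 5, at 19.7 FPKM, and Coa6 lowest there, at 8.12 FPKM. Gabpb1 was lowest of HG in HG 5, at 6.54 FPKM. The smooth muscle and pericyte markers summed lowest of CON in CON 5, at 835 FPKM.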

How the results depend on the processing

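Of 175 values of the 7 isoform genes over 25 alternatives, 3 changed sign, all on the scale of cardiomyocyte markers without Nppa: 0.075 for Cox8a, 0.071 for Cox6a1 and 0.0027 for Cox7a2. Of the 49 list genes called, 987 of 1078 values kept their call, 91 lost it and 0 changed direction. Of the 28 assembly factors, 11 were lower and 1 higher on the deposited scale. Under median-of-ratios scaling, 17 were lower and 0 higher, and under quantile normalization 16 were lower and 0 higher. The 8 regulators called became 5 without hemoglobin genes and with the rescaling that went with it, and 5 under the replicate block. They became 4 to 7 when 1 library was left out (4 without CON 3, CON 4, HG 1 or HG 3). With recovered reads in place of FPKM, and so without the scaling to gene length, the share of Cox8b differed by -12.1 points and that of Cox4i2 by 0.745 points. Under median-of-ratios scaling, the HG minus CON difference of the endothelial sum turned to -4.73 FPKM, and those of the macrophage (4.23 FPKM) and skeletal muscle sums (1.75 FPKM) no longer had an unadjusted exact permutation p under 0.05. With 1 library left out, the difference was 10.3 to 17.1 FPKM for the endothelial sum, 1.79 to 2.80 FPKM for skeletal muscle and -1143 to -684 FPKM for cardiomyocytes, and that p rose above 0.05 in 8 of 10 cases for skeletal muscle and 7 of 10 for cardiomyocytes, and fell below it in 2 of 10 for the endothelial sum. The causes were not tested. Replicate numbers did not pair the samples: deviations of same-numbered libraries correlated at 0.11, -0.07, -0.13, -0.03 and 0.01, and with the number as a block 5096 genes were called in place of 5836. Depth limits Cox4i2 most, with 198 to 313 reads in a library.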
